A study of Homo sapiens with 6 samples.

Results

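PTGR1 and 8 genes of the NRF2 antioxidant pathway were followed in xenograft tumors of human lung cancer cells, to ask whether the higher level of PTGR1 in fusion tumors came with other NRF2 targets. The members were PTGR1, NQO1, HMOX1, GCLC, GCLM, TXNRD1, SRXN1, SLC7A11 and NFE2L2. All probe sets whose annotation names one of these genes alone were taken, which gave 21 of the 49293 probe sets on the arrays, and 9 of the 18132 genes with a probe set of their own. PTGR1 was chosen by its measured level, which differed between the groups in these same tumors, so its difference is described and not tested. The other 8 were named for their place in the pathway, with results of these data known. The genes lie on different chromosomes: PTGR1 on 9, NQO1 on 16, HMOX1 on 22, GCLC on 6, GCLM on 1, TXNRD1 on 12, SRXN1 on 20, SLC7A11 on 4 and NFE2L2 on 2.

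The tumors grew from CRL-5889, an established line labelled as lung squamous carcinoma, in nude mice, and were taken after 4 weeks. The 3 fusion tumors came from cells transfected with the TRA2B-DNAH5 fusion (labelled TD), and the 3 vector tumors from cells transfected with the vector (labelled ctrl). Each tumor gave total RNA for 1 Affymetrix array. The labels name neither the promoter of the construct, the number of clones behind each cell population nor the age of the mice, so differences between the transfected populations and effects of the fusion cannot be told apart. Nude mice lack a thymus and mature T cells but keep macrophages and other innate cells.

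NRF2, the protein encoded by NFE2L2, is a transcription factor of the response to oxidants and electrophiles. In unstressed cells KEAP1 holds it and hands it to a CUL3 ubiquitin ligase for destruction. When KEAP1 is modified by electrophiles, NRF2 accumulates, pairs with small MAF proteins and binds antioxidant response elements near genes for glutathione synthesis, thioredoxin recycling, quinone reduction and NADPH supply. Squamous lung cancers often carry mutations in this pathway, and its activity is set mostly through the stability of the protein. PTGR1, an NADPH-dependent reductase, inactivates leukotriene B4 and saturates the double bond of 15-keto prostaglandins and of reactive alkenals, and is known as a gene that NRF2 can induce.

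The core of an antioxidant response element, TGACNNNGC read on both strands, was searched in RefSeq promoter windows of GRCh38.p14. These run from 250 bases before to 50 after a start of a gene, which is not always its outermost start. Windows were found for 7 of the 9 members, with a second window each for TXNRD1 and NFE2L2. HMOX1 and SLC7A11 were not matched. The core was present in 3 of the 9 member windows (33.3%), against 13.3% of all 35116 windows, and in 13 of 41 windows of other NRF2 targets (31.7%). These shares are a description, and the matches are shown because this is the sequence that NRF2 binds. GCLM held 1 match, which starts 34 bases before the gene's start, and the 2 windows of TXNRD1 held 3 in all, starting 99, 8 and 102 bases before a start. Capitals mark the core in each stretch, written in the direction of the gene.
GCLM, chr1:93909441-93909479, minus strand: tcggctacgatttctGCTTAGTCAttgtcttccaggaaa
TXNRD1, chr12:104215665-104215703, plus strand: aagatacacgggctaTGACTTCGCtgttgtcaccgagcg
TXNRD1, chr12:104215756-104215794, plus strand: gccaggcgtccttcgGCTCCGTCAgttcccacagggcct
TXNRD1, chr12:104286915-104286953, plus strand: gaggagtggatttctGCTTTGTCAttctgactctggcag

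The PTGR1 window held no match to the core and none to TGANTCA, the AP-1 site, a motif whose letters can overlap the core. This window surrounds a start inside the RefSeq span of PTGR1, whose outer start is at 111599647. Most of the window therefore lies within the gene, and little of the sequence before the outer start was searched. The window is printed whole because PTGR1 is the member whose level differed most.
PTGR1, chr9:111599382-111599681, minus strand: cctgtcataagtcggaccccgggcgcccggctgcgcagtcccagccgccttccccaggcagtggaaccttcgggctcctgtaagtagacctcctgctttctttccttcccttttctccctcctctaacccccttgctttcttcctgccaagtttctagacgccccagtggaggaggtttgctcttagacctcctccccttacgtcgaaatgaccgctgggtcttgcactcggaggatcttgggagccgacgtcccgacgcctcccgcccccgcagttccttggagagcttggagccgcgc
The AP-1 site was in 0 of the 9 member windows and in 7.71% of all windows. These are matches of letters in a short window, and elements that lie farther from a start are not covered.

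Values are log2 probe set levels as the authors deposited them, in which a difference of 1 is a doubling on the array's scale. Array medians lay between 6.34 and 6.39 in fusion tumors and between 6.27 and 6.37 in vector tumors. Vector tumor 1 stood apart, with a score of 55.8 on the first principal component of all probe sets, where the remaining tumors scored from -14.8 to -2.73. That component carried 42.4% of the variance. Fusion tumor 1 stood apart on the second component, at 38.3, with the remaining tumors at 2.73 or lower. Counts above 0 for the members and the pathway lists are therefore also given without vector tumor 1. A tested gene's difference without it is given where it changes sign or moves by over 1.5 times. All 21 member probe sets had a mean above the level of 4.94, the 30th percentile of all probe sets, below which genes were left out of the test. The labelled cell type was weakly marked: of 14 squamous and epithelial markers, 11 had a probe set of their own and 7 passed that level. KRT18 averaged 8.55 in fusion tumors and 8.57 in vector tumors. SOX2, a transcription factor of squamous tumors, read 8.70, 8.92 and 8.85 in fusion tumors against 9.24, 9.62 and 10.10 in vector tumors, lower in every fusion tumor (log2 difference -0.83, adjusted p = 0.369 by limma). The SOX2 difference without vector tumor 1 was -1.04 and was called (adjusted p = 0.0440). The part of this in the member values was not tested. The markers DSG3, DSC3, EPCAM and CDH1 lay below the filter.

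PTGR1 was the member that separated the groups. Its single probe set read 9.42, 9.48 and 9.57 in fusion tumors 1 to 3, against 8.82, 8.48 and 8.43 in vector tumors 1 to 3. Every fusion tumor was above every vector tumor, and vector tumor 1 was the nearest to the fusion group. The means were 9.49 ± 0.074 in fusion tumors and 8.58 ± 0.21 in vector tumors (SD, n = 3 each), a log2 difference of 0.91 (SE 0.12) or 1.88-fold. Without vector tumor 1 the difference was 1.03 (SE 0.088) or 2.05-fold. By size of the difference it ranked 31st of the 13694 genes tested.

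**Figure D1:**
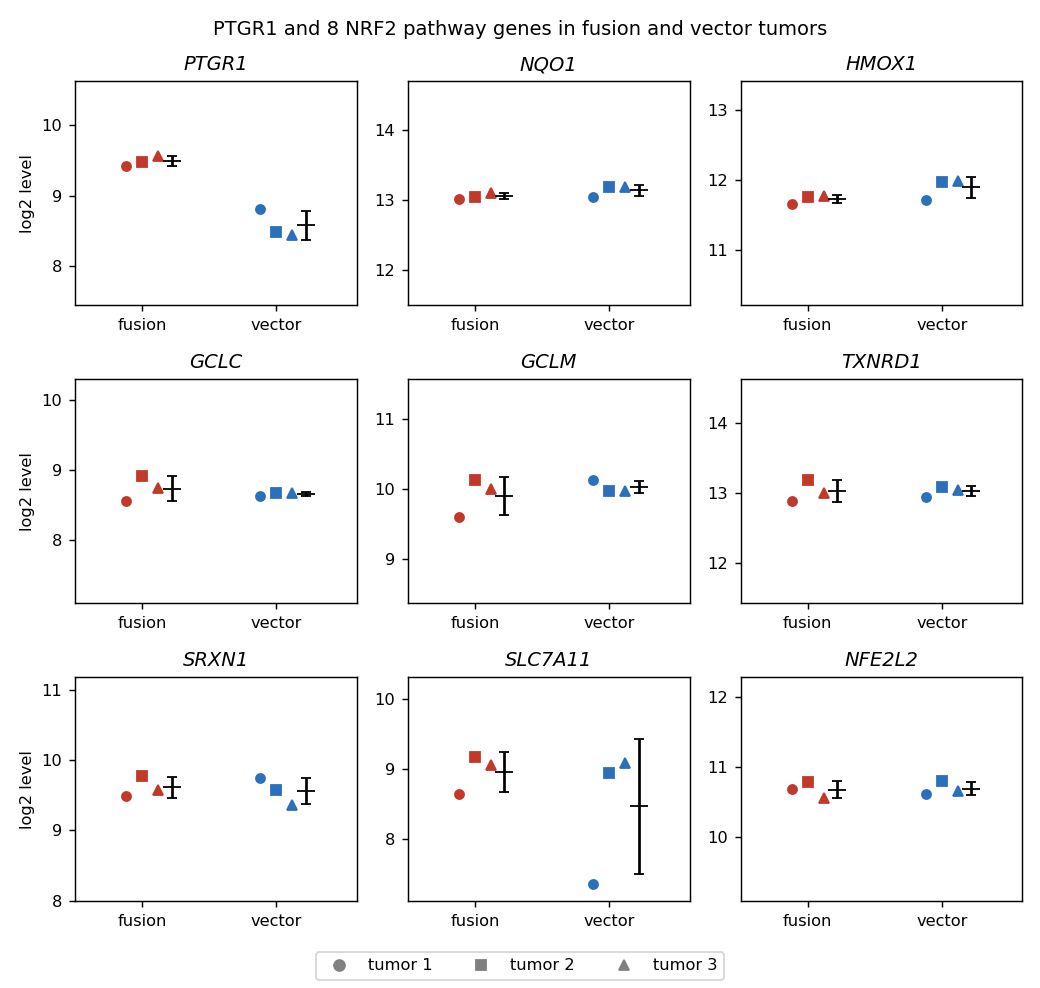
Log2 levels of the 9 genes, each from its probe set with the highest mean, in 3 fusion tumors (red, left) and 3 vector tumors (blue, right); symbols mark tumors 1 to 3 of each group, black bars the mean ± SD, and every panel spans the same log2 range. PTGR1 is the gene whose groups do not overlap, and SLC7A11 in vector tumor 1 lies at 7.36, below its other 5 tumors.

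None of the other 8 members passed the threshold between the groups: limma called 0 after Benjamini-Hochberg adjustment over all 13694 genes, and 0 had an unadjusted p below 0.05, where 0.073% (10 genes) and 5.89% of all genes did. Their adjusted p values lay between 0.956 and 1.00. Of these 8 genes 3 were above 0 and 5 below, with a median log2 difference of -0.0056, beside 50.8% of all genes above 0 and a median of 0.0020. None of the 8 had groups that did not overlap, which 11.7% of all genes had. For 7 of the 8 the upper end of the 95% confidence interval was at most 0.34 on the log2 scale, or 1.27-fold. This was under the PTGR1 difference of 0.91, for which PTGR1 was chosen. The exception was SLC7A11, whose interval reached 1.42. Without vector tumor 1, 2 of the 8 were above 0, the median was -0.053, and again 0 were called (0.27% of all genes, or 37). HMOX1 was then the 1 member with an unadjusted p below 0.05, which 9.19% of all genes had. The number of all genes called was 0 without fusion tumor 1 and 3 without each of fusion tumors 2 and 3 and vector tumors 2 and 3. The count above 0 was 5 without fusion tumor 1, fusion tumor 3 or vector tumor 2, and 1 without fusion tumor 2.

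NQO1, the quinone reductase most often used as a readout of NRF2, read 13.02, 13.05 and 13.11 in fusion tumors and 13.05, 13.19 and 13.19 in vector tumors. The groups overlapped through vector tumor 1, with a log2 difference of -0.086 (SE 0.089, 95% confidence interval -0.29 to 0.12), and -0.13 without that tumor. Its second probe set gave -0.013. HMOX1, which encodes the inducible heme oxygenase and is also held down by the repressor BACH1, read 11.66, 11.76 and 11.77 in fusion tumors against 11.72, 11.97 and 11.99 in vector tumors. Fusion tumors leaned low, and the groups overlapped through vector tumor 1. The log2 difference was -0.17 (SE 0.10, adjusted p = 0.956 by limma), and -0.25 (SE 0.085, adjusted p = 0.406) without that tumor. All 3 HMOX1 probe sets were below 0, at -0.17, -0.16 and -0.088. The second of them read 10.26, 10.25 and 10.30 in fusion tumors and 10.36, 10.48 and 10.46 in vector tumors, so that its groups did not overlap. It was the 1 of the 20 probe sets of the other 8 members of which this was true, where 10.9% of all probe sets naming 1 gene did not overlap.

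Macrophages express HMOX1, and in bulk tumors fewer cells of a type and less RNA per cell cannot be told apart. Of 13 macrophage markers 7 passed the filter, with a mean log2 level from 6.43 to 6.54 over fusion tumors and 6.32 to 6.42 over vector tumors. By limma 0 of the 7 were called (0.073% of all genes), and their median log2 difference was 0.0075. The lysosomal glycoprotein CD68 was at 0.80 (adjusted p = 0.112 by limma) and CSF1R, the receptor for macrophage growth factor, at 0.17. In both of these all fusion tumors were higher. TYROBP, a signalling adaptor, was at -0.13 with all fusion tumors lower. Of all genes, 11.7% had groups that did not overlap. Without CD68 the mean of the other 6 was 6.08 to 6.24 over fusion tumors and 6.10 to 6.20 over vector tumors, which overlap. The markers CD163, CD14, PTPRC, MRC1, ADGRE1 and MARCO lay below the filter. The array carries human probe sets, and how mouse RNA reads on them is not known. The part of these cells in the member values was not tested.

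The subunits of the ligase that starts glutathione synthesis had small differences of opposite sign. GCLC, the catalytic subunit of glutamate-cysteine ligase, read 8.55, 8.91 and 8.74 in fusion tumors and 8.63, 8.67 and 8.68 in vector tumors. The fusion tumors lay on both sides of the vector tumors, with a log2 difference of 0.077 (SE 0.11). The other 3 GCLC probe sets gave -0.19, -0.16 and -0.036, so the sign depended on the probe set. GCLM, the modifier subunit that makes the ligase more efficient, read 9.60, 10.12 and 9.99 in fusion tumors and 10.13, 9.97 and 9.97 in vector tumors. Fusion tumor 1 was the lowest, and the log2 difference was -0.12 (SE 0.14), with -0.055 by the second probe set. It became -0.071 without vector tumor 1 and 0.029 without fusion tumor 1.

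SLC7A11 had the second largest difference of the members, and it rested on 1 tumor. The gene encodes the transport subunit of the antiporter that brings cystine in for glutathione and sends glutamate out. It read 8.64, 9.17 and 9.06 in fusion tumors, against 7.36, 8.94 and 9.09 in vector tumors. Vector tumor 1 was low and the other vector tumors lay within the fusion range. The log2 difference of 0.49 (SE 0.41, adjusted p = 0.963 by limma) became -0.061 (SE 0.15) without vector tumor 1. A second probe set showed the same low tumor, at 7.07, 8.05 and 7.82 in fusion tumors and 6.25, 7.58 and 7.85 in vector tumors. The third did not, at 7.61, 7.74 and 7.78 in fusion tumors and 7.55, 7.48 and 7.93 in vector tumors, so the probe sets of SLC7A11 disagree about vector tumor 1.

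The thioredoxin arm had small differences between the groups, none of them called. TXNRD1, the selenoenzyme that returns thioredoxin to its reduced form with NADPH, read 12.88, 13.19 and 13.00 in fusion tumors and 12.94, 13.08 and 13.05 in vector tumors. Its log2 difference was -0.00074 (95% confidence interval -0.24 to 0.24), and the other 2 probe sets gave 0.034 and 0.048. It became -0.042 without vector tumor 1. SRXN1, sulfiredoxin, which repairs overoxidised peroxiredoxins, read 9.49, 9.78 and 9.58 in fusion tumors against 9.75, 9.57 and 9.37 in vector tumors, with full overlap and a log2 difference of 0.052 (95% confidence interval -0.24 to 0.34), and 0.14 without vector tumor 1. The transcript of NRF2 itself, NFE2L2, read 10.69, 10.80 and 10.56 in fusion tumors and 10.62, 10.80 and 10.65 in vector tumors. The log2 difference of NFE2L2 was -0.011 (95% confidence interval -0.24 to 0.22), 0.018 by its second probe set, and -0.045 without vector tumor 1. A transcript level does not measure the NRF2 protein.

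**Figure D2:**
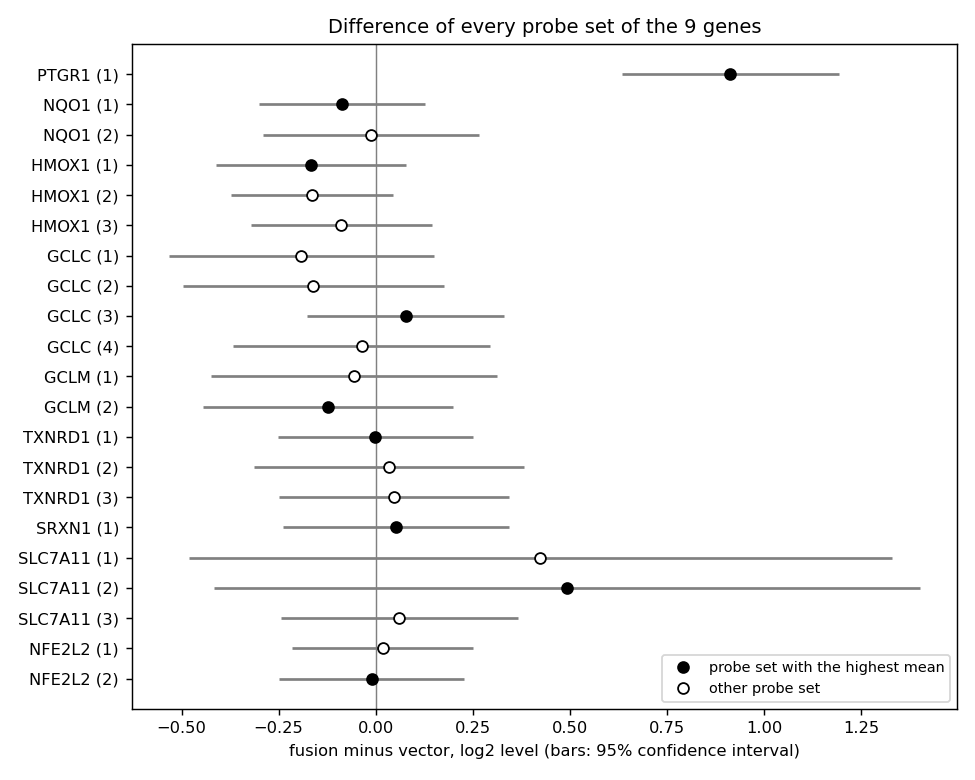
Difference of fusion minus vector in log2 level for all 21 probe sets of the 9 genes, from a limma fit across every probe set that names 1 gene; numbers in brackets count the probe sets of a gene, filled points are those with the highest mean, and bars are 95% confidence intervals. PTGR1 stands at 0.91, and the other 20 probe sets have 8 values above 0 and 12 below.

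Across the probe sets of the other 8 members, 8 of 20 were above 0, 0 were called by limma over all 44988 probe sets naming 1 gene (7 called in all, 0.0156%), and 0 had an unadjusted p below 0.05 (5.33% of all). The wide intervals were those of the SLC7A11 probe sets in which vector tumor 1 was low.

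Further genes known to be induced by NRF2 in human cells were not called either. Of a list of 41, 35 had a probe set of their own and 30 passed the filter. By limma 0 of the 30 were called over all genes (0.073% of all), and 2 had an unadjusted p below 0.05 (5.89% of all), so neither count stands apart from the background. There were 10 above 0 and 20 below, where 50.8% of all genes were above 0, with a median log2 difference of -0.050. Leaving out vector tumor 1 gave 13 above 0 with a median of -0.012, 0 called and 3 at an unadjusted p below 0.05 (9.19% of all). With all 6 tumors, the upper end of the 95% confidence interval was below the PTGR1 difference for all 30, the highest being 0.88 for KYNU. PTGR1 was chosen for that difference, so the comparison is a description. The interval of PTGR1 itself ran from 0.64 to 1.19, and 0.88 lies inside it. KYNU was at 0.063 with all 6 tumors and at 0.46 (SE 0.26) without vector tumor 1. That tumor read 10.19 for KYNU, against 9.35 and 8.68 in the other vector tumors. Intervals without vector tumor 1 were not compared. CABYR, a calcium-binding protein gene of the sperm flagellum that is also found in lung tumors, read 9.33, 9.26 and 9.19 in fusion tumors against 8.94, 8.91 and 9.03 in vector tumors (log2 difference 0.30, adjusted p = 0.532). All fusion tumors were higher, as in 5.94% of all genes. MGST1, a membrane-bound glutathione transferase, read 6.60, 6.42 and 6.54 in fusion tumors against 6.76, 6.75 and 6.77 in vector tumors (log2 difference -0.24, adjusted p = 0.730). All fusion tumors were lower, as in 5.74% of all genes. PIR, an iron-binding nuclear protein, was at -0.26 and the autophagy receptor SQSTM1 at -0.16, with adjusted p values of 0.896 and 0.956. The aldo-keto reductases AKR1B10, AKR1C1 and AKR1C2, the aldehyde dehydrogenase ALDH3A1 and the malic enzyme ME1 are all known as strong NRF2 targets. They lay below the filter level in these tumors and were left out of the main fit. In the fit over all probe sets, AKR1B10 was at 0.29, AKR1C1 at 0.0068, AKR1C2 at 0.17 and ALDH3A1 at 0.18, by the probe set with the highest mean. ME1 read 3.51, 3.96 and 3.75 in fusion tumors against 3.87, 3.69 and 3.99 in vector tumors. With no filter, 14 of 35 targets were above 0 and limma called 0 (0.0552% of all genes).

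Genes that control NRF2 gave no call. Of 16 listed, 14 were tested, with 5 above 0, 9 below and a median log2 difference of -0.094, where 50.8% of all genes were above 0. By limma 0 were called (0.073% of all genes) and 0 had an unadjusted p below 0.05 (5.89% of all). With so few genes, neither count stands apart from the background. The smallest p values belonged to SQSTM1, which draws KEAP1 into autophagy, then BTRC (-0.18), the substrate receptor of a second ligase for NRF2, RBX1 (-0.13), the RING subunit of both ligases, and NFE2L3 (-0.19), a related transcription factor. With vector tumor 1 left out, 3 were above 0, the median was -0.067, RBX1 was at -0.066 and NFE2L3 at -0.079. KEAP1, named for its role after its values were seen, read 9.14, 8.95 and 8.97 in fusion tumors and 9.28, 9.05 and 9.06 in vector tumors, which overlap (log2 difference -0.11, 95% confidence interval -0.35 to 0.13), and -0.036 without vector tumor 1. BACH1 lay below the filter.

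Antioxidant enzymes outside the NRF2 lists were likewise not called. Of 24 listed, 18 were tested, with 10 above 0, 8 below and a median log2 difference of 0.0052, where 50.8% of all genes were above 0. By limma 0 passed (0.073% of all genes). An unadjusted p below 0.05 was found for 1 gene, near the share of 5.89% of all genes. That gene was SELENOP, the secreted selenium carrier, at 6.75, 7.07 and 6.91 in fusion tumors against 6.17, 6.54 and 6.78 in vector tumors (log2 difference 0.42, adjusted p = 0.767, and 0.25 without vector tumor 1). Fusion tumors leaned high, with an overlap through vector tumor 3. The mitochondrial peroxidase PRDX3 (0.16) and the glutaredoxins GLRX2 (-0.21) and GLRX3 (0.12) followed by p. Without vector tumor 1, which read 8.38 for GLRX2 against 7.86 and 7.74 in the other vector tumors, GLRX2 was at -0.013 and GLRX3 at 0.21. The list then had 14 of 18 above 0 with a median of 0.069.

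PTGR1 also belongs to prostaglandin and leukotriene breakdown. A wider list of genes for the synthesis, breakdown, transport and receptors of these lipids, without PTGR1, held none that was called. Of 29 listed, 22 were tested, with 10 above 0, 12 below and a median log2 difference of -0.0054. By limma 0 were called (0.073% of all genes). An unadjusted p below 0.05 belonged to 1 gene, near the share of 5.89% of all genes. That gene was PTGR3, a further reductase of 15-keto prostaglandins, which read 8.16, 8.06 and 7.91 in fusion tumors against 8.12, 8.70 and 8.55 in vector tumors. Vector tumor 1 lay among the fusion tumors and the other vector tumors lay above them. The log2 difference of PTGR3 was -0.41 (SE 0.15, adjusted p = 0.730), and -0.58 (SE 0.11, adjusted p = 0.105) without vector tumor 1. All 6 of its probe sets were below 0, from -0.44 to -0.12. PTGR2, the third reductase of this kind, was at -0.14 (SE 0.13), the prostaglandin exporter ABCC4 at 0.21 and the prostaglandin E2 receptor PTGER4 at -0.42 (SE 0.35). With vector tumor 1 left out these were -0.26, 0.10 and 0.038, so that PTGER4 changed sign: vector tumor 1 read 8.70, against 7.62 and 7.06 in the other vector tumors. The list then had 10 of 22 above 0 with a median of -0.011.

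**Figure D3:**
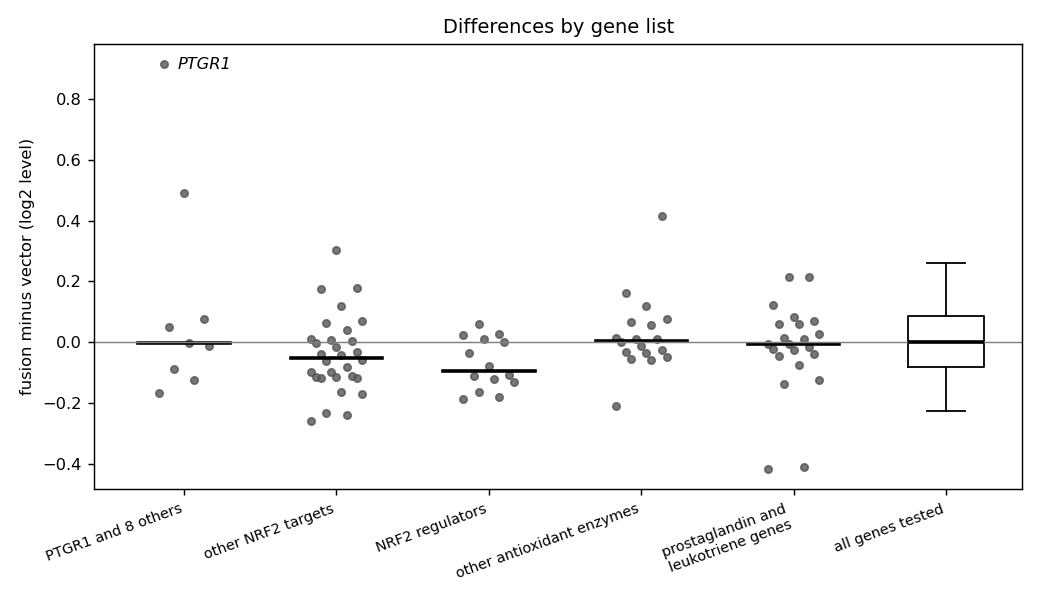
Differences of fusion minus vector in log2 level for the tested genes of 5 lists (points, with the list median as a bar) and for all 13694 genes (box from the 25th to the 75th percentile, whiskers at the 5th and 95th). PTGR1 at 0.91 lies above all other genes of the 5 lists, whose medians run from -0.094 to 0.0052.

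The genes whose profile over the 6 tumors was most like PTGR1 were not among the NRF2 genes. Likeness was measured as the root mean square difference of log2 levels after centring each gene on its own mean, over 6 tumors and 13693 other genes. The measure includes the group difference for which PTGR1 was chosen, so genes with a like difference rank near it. The ranks are therefore a description and add no support separate from the differences above. The nearest were ARL14, which encodes an ARF-like GTPase (0.049), SRGN, the core protein of the proteoglycan serglycin (0.11), SAMD9, an interferon-inducible antiviral factor (0.12), DUSP5, a nuclear phosphatase of ERK (0.16), and IFT57, a carrier subunit of ciliary transport (0.16). ARL14 read 5.58, 5.71 and 5.67 in fusion tumors and 4.91, 4.59 and 4.62 in vector tumors, so vector tumor 1 was nearest to the fusion group as in PTGR1. A gene that did not vary at all would lie 0.47 from PTGR1. The closest other member was SRXN1, at 0.44 and rank 2363, followed by GCLC at 0.45 and rank 2810, while HMOX1 ranked 12389 and SLC7A11 13552. In the list of other NRF2 targets CABYR was closest, at 0.34 and rank 217. Without vector tumor 1, 4 of the 5 nearest genes were shared and SRXN1 ranked 1682.

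**Figure D4:**
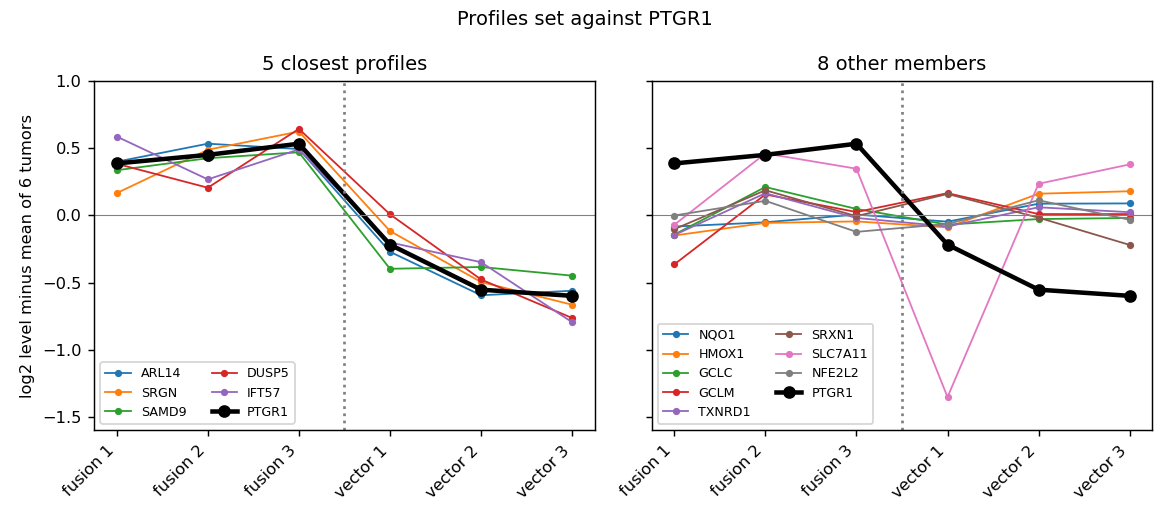
Log2 levels centred on each gene's mean over 6 tumors, for PTGR1 (thick black) beside the 5 nearest profiles (left panel) and the 8 other members (right panel); lines join the values of 1 gene, and tumor numbers carry no order. The nearest profiles separate fusion from vector tumors, which follows from a measure that includes the group difference. Of the other members 7 lie between -0.37 and 0.21, and SLC7A11 runs from -1.35 in vector tumor 1 to 0.46 in fusion tumor 2.

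The neighbours of PTGR1 on chromosome 9 were not called. The 3 tested genes before it in RefSeq order, SVEP1, LPAR1 and ECPAS, had log2 differences of 0.045, 0.20 and 0.16, and the 3 after it, DNAJC25, UGCG and SUSD1, 0.097, 0.27 and -0.052. UGCG, the glucosylceramide synthase, read 11.51, 11.38 and 11.30 in fusion tumors against 10.97, 11.20 and 11.21 in vector tumors (adjusted p = 0.780 by limma). ECPAS, a proteasome adaptor, read 9.06, 9.02 and 8.95 in fusion tumors against 8.79, 8.86 and 8.90 in vector tumors (adjusted p = 0.940). In both of these all fusion tumors lay above all vector tumors, as in 5.94% of all genes. Leaving out vector tumor 1 put LPAR1 at 0.46, SVEP1 at -0.021 and SUSD1 at -0.023, and UGCG at 0.19.

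In 2 further marker lists of other cell types the mean levels did not overlap between the groups. Fibroblast markers (8 of 10 tested) had a mean log2 level of 7.68 to 7.78 in fusion tumors and 7.28 to 7.57 in vector tumors, and adipocyte markers (7 of 9 tested) 6.49 to 6.55 in fusion tumors and 6.64 to 6.78 in vector tumors. By limma 0 markers of these lists were called with all 6 tumors (0.073% of all genes). All fusion tumors were higher in 4 of the 8 fibroblast markers and lower in 2 of the 7 adipocyte markers. The groups did not overlap in 11.7% of all genes. An unadjusted p below 0.05 was found for 4 fibroblast markers, all higher, and 3 adipocyte markers, all lower (5.89% of all genes). The fibroblast protease FAP had a log2 difference of 0.91 and the adipogenic regulator PPARG one of -0.38. LUM and DCN, and FABP4 and LEP, lay below the filter. Of the fibroblast markers 7 were above 0 and 1 below, PDGFRA at -0.15 (-0.34 without vector tumor 1). Adipocyte markers had 2 above 0, LPL at 0.040 and CFD at 0.0040, and 5 below. Leaving out vector tumor 1 put LPL at -0.098 and CFD at -0.057. Then 7 of 8 fibroblast and 0 of 7 adipocyte markers were above 0. Endothelial (5 tested), erythroid (4) and skeletal muscle markers (5) overlapped between the groups in their mean levels. Among the fibroblast markers, PDGFRA averaged 13.02 in fusion and 13.16 in vector tumors, and THY1 10.92 and 10.57. Whether tumor cells or fibroblasts gave these signals was not tested. The part of the other cell types in the PTGR1 difference was also not tested.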

How the data were processed

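The authors deposited log2 probe set levels, a column for each array. No unit is stated with them, so the log2 scale was inferred from their range and like distributions, and how background was corrected and arrays were normalized is not given in the sources used here. Depth has no meaning for arrays, and 3 arrays per group limit the precision. Groups and replicate numbers came from the sample titles, and the labels call the tumors biological replicates without naming the mouse.

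Gene names came from the platform annotation: 44988 probe sets named 1 gene, 1832 several and 2473 none here. Each gene was represented by its probe set with the highest mean. Genes with a mean below the 30th percentile (log2 level 4.94) were left out, 4438 in all. The group difference was fitted by lmFit and eBayes of limma 3.58.1 (R 4.3.3), two-sided, with Benjamini-Hochberg adjustment over 13694 genes and a threshold of 0.05, and for all member probe sets in a second fit over 44988 probe sets with no filter. An exact permutation test of 3 against 3 tumors cannot go below 0.1 and was not used. The fit was tested on simulated data.

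The members and lists were chosen with earlier results of these data known. Named were all members, from each pathway list the called genes or up to 4 with the smallest p, up to 3 per marker list, the 5 profiles nearest to PTGR1 and 3 tested neighbours on each side. Alternatives changed the filter, probe set choice, normalization, variance model, array weights, replicate block and tumors included. Figures were drawn with matplotlib 3.10.9 in Python 3.11.15.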

Additional observations from a re-analysis of the deposited data

How the results depend on the processing

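The PTGR1 difference stayed between 0.84 and 1.04 on the log2 scale over 15 alternatives. In all 15, limma called 0 of the other 8 members and 0 of the other NRF2 targets. The share of these targets above 0 ran from 23.3% (7 of 30, median centring) to 43.3% (13 of 30, without vector tumor 1). With no filter it was 40% (14 of 35). The number of the 8 members above 0 was 5 without fusion tumor 1, fusion tumor 3 or vector tumor 2, and 1 without fusion tumor 2. Of all genes, limma called 1 with the 50th percentile filter, 6 with the most variable probe set, 16 with the mean of probe sets and 140 with array weights, against 10. Leaving out 1 tumor gave 0 to 37 calls, with 0 without fusion tumor 1 (669 at an unadjusted p below 0.05), 37 without vector tumor 1 and 3 without each of the others. NQO1 and HMOX1 stayed below 0 throughout (-0.13 to -0.013 and -0.25 to -0.12).

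Members near 0 changed sign with the setting; these differences were not called before or after. With the most variable probe set GCLC was at -0.19 and TXNRD1 at 0.034, and with the mean of probe sets GCLC was at -0.078, TXNRD1 at 0.027 and NFE2L2 at 0.0036. Among the fits that leave out 1 tumor, values ran from -0.0091 to 0.17 for GCLC, -0.23 to 0.029 for GCLM, -0.083 to 0.072 for TXNRD1, -0.045 to 0.14 for SRXN1, -0.061 to 0.80 for SLC7A11 and -0.067 to 0.048 for NFE2L2. The cause was not tested.

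The replicate number as a block gave 8 calls and 0 among the members other than PTGR1. Deviations of same-numbered tumors correlated at 0.097, 0.17 and 0.051 across genes, and 6 of 6 tumors were closest to their own number in the other group, a hint from the data and not from the labels. The rank of SRXN1 without vector tumor 1 and the macrophage mean without CD68 were added after the data were seen.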
